A study of Arabidopsis thaliana with 12 samples.

Results

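Cuticular wax is the lipid layer on the surface of the shoot, and transcripts of 10 genes that make or export it were followed among 33602 genes listed for whole Arabidopsis thaliana seedlings. The members were taken by gene identifier: KCS1 (AT1G01120), CER6 (AT1G68530), CER10 (AT3G55360), KCR1 (AT1G67730), CER2 (AT4G24510), CER4 (AT4G33790), CER1 (AT1G02205), CER3 (AT5G57800), MAH1 (AT1G57750) and LTPG1 (AT1G27950). The seedlings were wild-type Columbia, raised at 22 °C in white light from fluorescent and halogen lamps, and 3 days old when the exposure began. It lasted 10 h, the light period of day 4, and combined shade or white light with 28 or 20 °C. This made 4 groups, namely warm shade (28 °C), shade at 20 °C, warm white light (28 °C) and white light at 20 °C, with 3 biological replicates each. No group carried a mutation or a transgene, and the labels describe the shade light no further.

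Wax begins with fatty acids from the plastid, which an enzyme complex of the endoplasmic reticulum lengthens to very long chains in the epidermis. KCS1 and CER6 are ketoacyl-CoA synthases, which add carbon units and set the chain length, KCR1 and CER10 are the reductases of the same cycle, and CER2 helps CER6 reach the longest chains. CER3 and CER1 then turn the acyl chains into alkanes, MAH1 oxidises alkanes to secondary alcohols and ketones, and CER4 makes primary alcohols. LTPG1, a lipid transfer protein anchored on the outer face of the plasma membrane, takes part in moving wax to the surface.

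Reads assigned to genes numbered 3500325 to 4481869 per library over the 12 libraries, and levels are given as log2 CPM, the log2 of counts scaled to the total of each library. A gene was tested where at least 3 libraries had a log2 CPM of at least 0, which 21316 genes and 9 of the 10 members did. 18S ribosomal RNA took between 0.535% and 2.35% of the reads of a library. The epidermis was represented in every library: all 6 listed markers (ATML1, PDF2, PDF1, ACR4, HDG2 and LTP1) had reads in each group. Their summed level was 845 to 1023 CPM in shade at 28 °C, 776 to 1027 CPM in shade at 20 °C, 717 to 874 CPM in white light at 28 °C and 706 to 765 CPM in white light at 20 °C. Since whole seedlings were extracted, a change in the number of epidermal cells and a change in the RNA per cell cannot be told apart.

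The members differed widely in level. Per kilobase of exon and over all 12 libraries, LTPG1 averaged 130 CPM and CER6 121 CPM, and the ranges of these 2 genes overlapped. KCR1 averaged 73.8, CER2 68.0, CER10 67.8, CER3 47.0 and KCS1 43.0 CPM per kilobase, and in this order the ranges of neighbours over the libraries overlapped. The lowest CER6 library, at 109, lay above the highest KCR1 library, at 98.2. CER1, whose product forms alkanes together with CER3, stood lower than all of these at 4.27 CPM per kilobase, between 0.99 and 7.62 in single libraries. CER4 averaged 0.97 CPM per kilobase and had 92 reads in all 12 libraries together. MAH1, an enzyme known from stems, had 8 reads in total, found in 3 of the 12 libraries: 4 reads in shade at 28 °C, 2 in shade at 20 °C, 2 in white light at 28 °C and 0 in white light at 20 °C. It was left untested, and 0 reads in a library allow a level of up to 0.669 to 0.857 CPM there. Summed over the 10 members, the level was 1111 to 1169 CPM in shade at 28 °C, 1107 to 1196 CPM in shade at 20 °C, 860 to 905 CPM in white light at 28 °C and 810 to 914 CPM in white light at 20 °C. The shade libraries lay above the white light libraries in this sum. CER6 was its largest part but differed little, with a mean of 337 CPM in shade and 321 CPM in white light at 20 °C. The sum averaged 1166 and 872 CPM in these 2 groups.

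**Figure D1:**
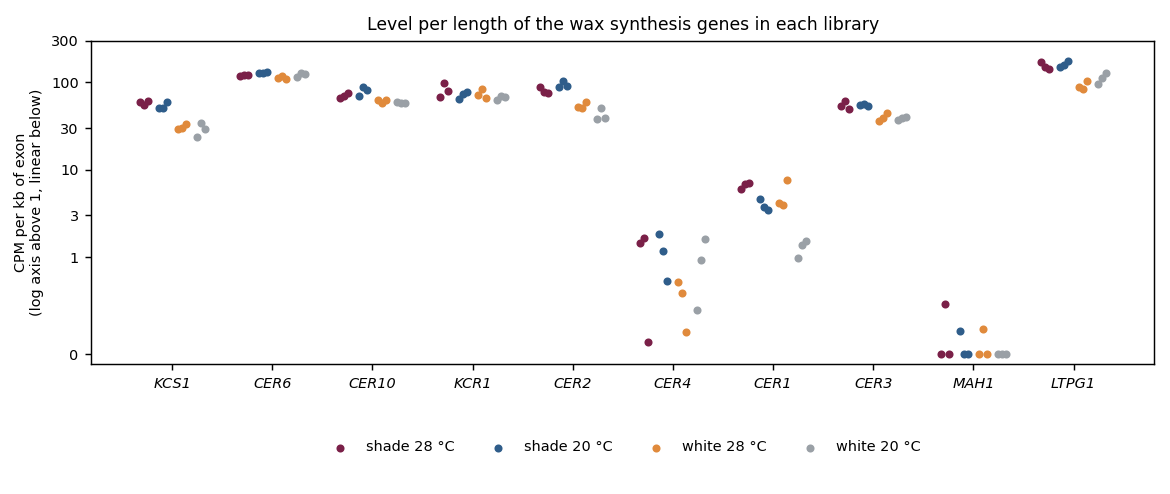
Level of the 10 wax genes in each library as CPM per kilobase of exon, on an axis that is logarithmic above 1 and linear below, with the shade groups (28 °C, then 20 °C) left of the white light groups (28 °C, then 20 °C). LTPG1 and CER6 lie highest, CER1 more than 10 times lower, and CER4 and MAH1 near 0.

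Seedlings shaded at 20 °C were compared with those left in white light at that temperature to ask what shade alone changed. Of the 9 tested members, 6 rose and 0 fell: CER1, CER2, KCS1, LTPG1, CER3 and CER10. Among all 21316 tested genes, 5.43% rose and 2.66% fell in this comparison (limma adjusted p under 0.05). The median log2 change of the 9 members was 0.51, beside 0.06 over all tested genes. Quantile normalization, which changed the counts over the whole table to 884 that rose and 787 that fell, beside 1158 and 566, called the same 6 members. With a constant prior variance in the test, 4 members (KCS1, CER1, CER2 and CER3) were called, and CER10 was lost without the second shade library at 20 °C (limma adjusted p = 0.0572).

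In the elongation complex, KCS1 was higher in shade at both temperatures. KCS1 (chr1:57164-59215 in TAIR10.1, minus strand) was at 6.92, 6.84 and 6.96 log2 CPM in shade at 28 °C, 6.71, 6.71 and 6.92 in shade at 20 °C, 5.91, 5.94 and 6.11 in white light at 28 °C and 5.61, 6.13 and 5.92 in white light at 20 °C. Every shade library lay above every white light library. How many of all tested genes separate in this way was not counted, for KCS1 or for the members below. KCS1 rose by 0.89 ± 0.12 on the log2 scale in shade at 20 °C (SE, n = 3 per group; limma adjusted p = 6.69e-06), a 1.86-fold change.

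CER2 (chr4:12660687-12662656, plus strand), the partner of the synthases for the longest chains, gave 7.17, 6.98 and 6.96 log2 CPM in shade at 28 °C, 7.17, 7.41 and 7.22 in shade at 20 °C, 6.41, 6.38 and 6.59 in white light at 28 °C and 5.97, 6.36 and 5.98 in white light at 20 °C. Its highest values were those of shade at 20 °C, and no white light library reached any shade library. The log2 change in shade at 20 °C was 1.16 ± 0.12, or 2.24-fold (limma adjusted p = 4.7e-08). RefSeq's TAIR10.1 annotation places 19.4% of its exon bases on the opposite strand of AT4G07275, a long noncoding RNA, and 5.90% opposite AT4G24520 (ATR1, an electron donor of cytochrome P450 enzymes). Nothing given says that the library kit marked strand, so reads from these overlaps cannot be told apart. ATR1 rose by 0.40 on the log2 scale in the same comparison (limma adjusted p = 0.00645), less than CER2, and AT4G07275 was not analysed here.

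CER10 (chr3:20520930-20523098, minus strand), the reductase of the last step of each elongation cycle, was at 6.58, 6.66 and 6.75 log2 CPM in shade at 28 °C, 6.64, 6.99 and 6.88 in shade at 20 °C, 6.51, 6.39 and 6.50 in white light at 28 °C and 6.41, 6.39 and 6.38 in white light at 20 °C. All white light libraries lay below all shade libraries. CER10 rose by 0.44 ± 0.11 in shade at 20 °C (limma adjusted p = 0.00718). Its log2 change at 28 °C was 0.20 ± 0.11 (limma adjusted p = 0.386). CER10 shares 27 exon bases, 1.89% of its exons, with AT3G55350 on the other strand, which gave 0.10 in shade at 20 °C (limma adjusted p = 0.915).

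The remaining elongation genes, CER6 and KCR1, did not pass the test in any comparison as fitted. CER6 (chr1:25712414-25715024, minus strand), the main synthase of stem wax, was at 8.29, 8.30 and 8.30 log2 CPM in shade at 28 °C, 8.37, 8.40 and 8.42 in shade at 20 °C, 8.21, 8.27 and 8.15 in white light at 28 °C and 8.25, 8.39 and 8.33 in white light at 20 °C. All 12 libraries lay between 8.15 and 8.42, and the log2 change in shade at 20 °C was 0.07 ± 0.09 (limma adjusted p = 0.705). KCR1 (chr1:25391338-25393889, plus strand), the ketoacyl reductase used for all very long chains, was at 6.95, 7.48 and 7.18 log2 CPM in shade at 28 °C, 6.88, 7.08 and 7.14 in shade at 20 °C, 7.03, 7.25 and 6.93 in white light at 28 °C and 6.83, 6.98 and 6.97 in white light at 20 °C. Its groups overlapped in every pair, and its log2 change in shade at 20 °C was 0.11 ± 0.12 (limma adjusted p = 0.679).

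Of the alkane forming genes, CER1 had the largest rise of any member in shade at 20 °C. CER1 (chr1:418416-422579, plus strand) was at 4.43, 4.62 and 4.65 log2 CPM in shade at 28 °C, 4.06, 3.78 and 3.65 in shade at 20 °C, 3.92, 3.84 and 4.78 in white light at 28 °C and 1.88, 2.35 and 2.48 in white light at 20 °C. The white light libraries at 20 °C, with 16, 21 and 19 reads, stood apart from the other 9 libraries, which had 51 to 121 reads. In shade at 20 °C CER1 rose by 1.59 ± 0.25 on the log2 scale, or 3.02-fold (limma adjusted p = 7.94e-05). CER3 (chr5:23420184-23424117, plus strand), which acts with CER1, was at 7.11, 7.30 and 7.00 log2 CPM in shade at 28 °C, 7.14, 7.20 and 7.12 in shade at 20 °C, 6.56, 6.68 and 6.84 in white light at 28 °C and 6.58, 6.65 and 6.70 in white light at 20 °C. Shade and white light libraries of CER3 did not overlap, and it rose by 0.51 ± 0.10 in shade at 20 °C (limma adjusted p = 0.00143).

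LTPG1 (chr1:9740508-9742159, plus strand), the export gene, was at 7.40, 7.20 and 7.15 log2 CPM in shade at 28 °C, 7.21, 7.30 and 7.44 in shade at 20 °C, 6.45, 6.36 and 6.67 in white light at 28 °C and 6.58, 6.77 and 6.96 in white light at 20 °C. Shade libraries lay above all white light libraries, and those of white light at 28 °C included the lowest. LTPG1 rose by 0.55 ± 0.11 in shade at 20 °C (limma adjusted p = 0.00183), and this call was lost with a constant prior variance (limma adjusted p = 0.0589). It shares 23 exon bases, 2.34% of its exons, with AT1G27960 (ECT9) on the other strand, which gave -0.01 in shade at 20 °C (limma adjusted p = 0.994).

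CER4, the alcohol forming reductase, had 10, 13 and 1 reads in shade at 28 °C, 16, 10 and 6 in shade at 20 °C, 6, 5 and 2 in white light at 28 °C and 4, 8 and 11 in white light at 20 °C. Its log2 change in shade at 20 °C was 0.36 ± 0.76, and a change of that size was not detectable at this depth.

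**Figure D2:**
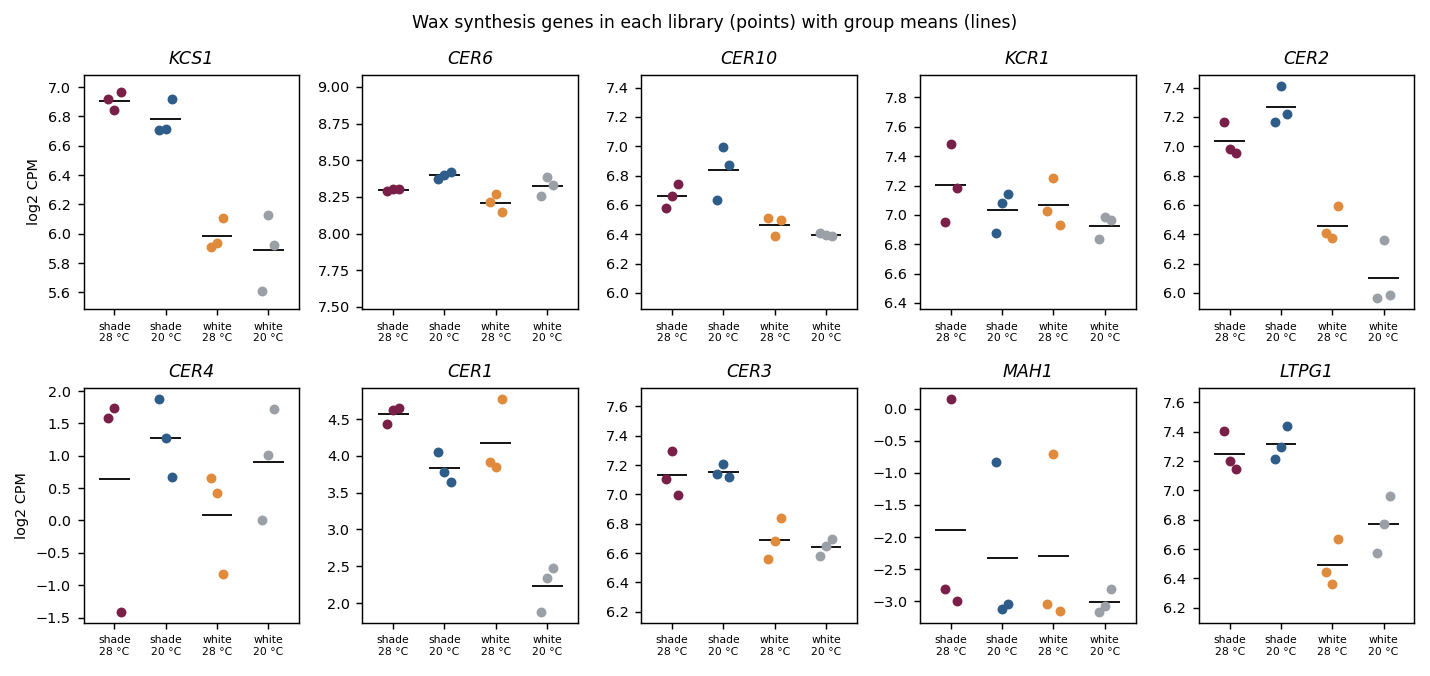
Log2 CPM of each wax gene in every library (points) and group means (lines), by group; the vertical scales differ between panels. KCS1, CER2, CER3, CER10 and LTPG1 show shade libraries above all white light libraries, CER1 shows white light at 20 °C alone at the bottom, and CER6 hardly varies. The share of all tested genes with such a separation was not counted.

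Shade was also compared with white light at 28 °C, to see whether the same genes differed in warm seedlings. Here 4 of 9 tested members rose and 0 fell, beside 2.68% and 1.90% of all tested genes. KCS1 rose by 0.92 ± 0.12 (limma adjusted p = 8.55e-06), LTPG1 by 0.76 ± 0.11 (limma adjusted p = 6.51e-05), CER2 by 0.57 ± 0.12 (limma adjusted p = 0.00211) and CER3 by 0.44 ± 0.10 (limma adjusted p = 0.00895). These are 4 of the 6 members that rose at 20 °C, and the median of the 9 members was 0.44, beside -0.02 over all tested genes. CER1 gave 0.39 ± 0.25 (limma adjusted p = 0.517), and its groups overlapped. The CER3 call was lost without the first white light library at 28 °C (limma adjusted p = 0.0685) or the second shade library at 28 °C (limma adjusted p = 0.0832). With a constant prior variance 2 members were called, KCS1 and LTPG1.

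Warmth in white light, 28 against 20 °C, was compared to ask what temperature changed without shade, and 2 of 9 tested members rose. CER1 rose by 1.95 ± 0.25 on the log2 scale, or 3.85-fold (limma adjusted p = 4.02e-06), the largest change of a member in this comparison. CER2 rose by 0.35 ± 0.12 (limma adjusted p = 0.0359), a call lost without white light replicate 1 or 3 at 20 °C, without any of the 3 white light libraries at 28 °C (limma adjusted p = 0.0523 to 0.155), and with a constant prior variance (limma adjusted p = 0.138). The other 7 did not pass, and 0 fell, where 10.8% of all tested genes rose and 4.80% fell. The log2 change was 0.10 ± 0.12 for KCS1 (limma adjusted p = 0.638), 0.05 ± 0.10 for CER3 (limma adjusted p = 0.805) and -0.28 ± 0.11 for LTPG1 (limma adjusted p = 0.0983).

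The median log2 change with warmth in white light was 0.07 over the 9 members and 0.16 over all tested genes, and scaling changed calls. Under subtraction of each library's median, CER1 was still higher by 1.79 ± 0.25 (limma adjusted p = 1.1e-05), CER2 had 0.20 ± 0.12 (limma adjusted p = 0.353), and LTPG1 at -0.43 ± 0.12 (limma adjusted p = 0.011) and CER6 at -0.27 ± 0.09 (limma adjusted p = 0.0498) were lower. LTPG1 was also called lower by quantile normalization (limma adjusted p = 0.0261) and trimmed mean scaling (limma adjusted p = 0.0144). KCS1, CER3 and CER10 took small negative values under these 3 scalings and KCR1 under median subtraction, with no call. The genes called over the whole table split into 983 that rose and 1487 that fell under median subtraction, beside 2310 and 1023 without it. The third white light library at 28 °C had the highest CER1 value of its group and 2.30% of reads from 18S RNA. Without it CER1 rose by 1.65 ± 0.26 (limma adjusted p = 1e-04), CER2 had 0.29 ± 0.13 (limma adjusted p = 0.155) and LTPG1 fell by 0.37 ± 0.12 (limma adjusted p = 0.0493). LTPG1 also passed, at -0.37 ± 0.12, without white light replicate 1 at 20 °C (limma adjusted p = 0.0423).

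Under shade, warmth gave no call in the pathway: 0 of 9 tested members passed in either direction, where 2.19% of all tested genes rose and 1.99% fell. At an unadjusted limma p under 0.05 there was 1 member, CER1, with a log2 change of 0.74 ± 0.25 (limma adjusted p = 0.104). All 3 shade libraries at 28 °C lay above the 3 shade libraries at 20 °C for CER1. The log2 change of CER2 was -0.23 ± 0.12 (limma adjusted p = 0.315) and that of KCS1 was 0.13 ± 0.12 (limma adjusted p = 0.654). All 21 alternative fits, each left-out library included, also gave 0 called members here. The median over the 9 members was -0.07, beside 0.08 over all tested genes, and median subtraction turned the whole-table counts to 239 that rose and 713 that fell, beside 467 and 425.

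**Figure D3:**
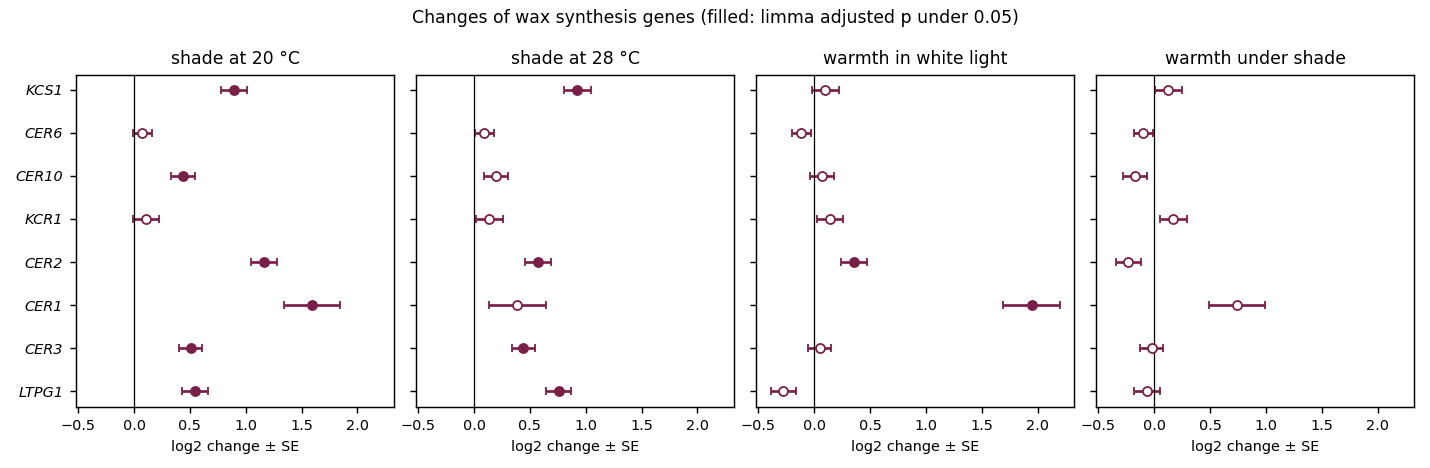
Log2 change ± SE of the tested wax genes, without CER4, in 4 comparisons of 3 against 3 libraries; filled points passed a limma adjusted p of 0.05. KCS1, CER2, CER3 and LTPG1 are filled in both shade panels, CER1 and CER2 are filled in the panel of warmth in white light, and the panel of warmth under shade has no filled point.

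Seedlings given shade and warmth together were set against those given neither. In this comparison 5 of 9 tested members rose and 0 fell, beside 14.9% and 7.42% of all tested genes; after median subtraction, which moved the whole-table counts to 1792 and 2237, the same 5 members were called. The median over the 9 members was 0.48, beside 0.16 over all tested genes. CER1 rose by 2.33 ± 0.25, or 5.04-fold (limma adjusted p = 8.5e-08), KCS1 by 1.02 ± 0.12 (limma adjusted p = 3.19e-07), CER2 by 0.93 ± 0.12 (limma adjusted p = 7.97e-07), CER3 by 0.49 ± 0.10 (limma adjusted p = 0.000867) and LTPG1 by 0.48 ± 0.11 (limma adjusted p = 0.00251). CER10 at 0.27 ± 0.11 (limma adjusted p = 0.0711) and KCR1 at 0.28 ± 0.12 (limma adjusted p = 0.0958) did not pass, and KCR1 passed without shade replicate 1 at 28 °C, at 0.41 ± 0.12 (limma adjusted p = 0.0191).

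The interaction term tested whether the change with both treatments departed from the sum of the separate changes on the log2 scale. It called 0 of 9 members, beside 0.127% of all tested genes with a positive and 0.319% with a negative term, or 45 and 50 genes with quantile normalization beside 27 and 68 without it. At an unadjusted limma p under 0.05 there were 2 members. CER1 had a term of -1.21 ± 0.36 (limma adjusted p = 0.158) and CER2 a term of -0.59 ± 0.16 (limma adjusted p = 0.121). The term of CER2 was -0.72 ± 0.16 without the second white light library at 20 °C, and passed there (limma adjusted p = 0.0425). KCS1, at 0.03 ± 0.17, and CER3, at -0.07 ± 0.15, had terms within their error.

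Shade alone was then set directly against warmth alone, which tests where the separate treatments differed. Of 9 tested members, 5 were higher under shade alone and 0 lower, beside 3.46% and 4.39% of all tested genes, with a median of 0.46 over the 9 members and -0.09 over all. The differences were 0.82 ± 0.11 for LTPG1 (limma adjusted p = 1.46e-05), 0.81 ± 0.12 for CER2 (limma adjusted p = 2.54e-05), 0.80 ± 0.12 for KCS1 (limma adjusted p = 4.99e-05), 0.46 ± 0.10 for CER3 (limma adjusted p = 0.0042) and 0.37 ± 0.11 for CER10 (limma adjusted p = 0.0278). CER1 differed by -0.35 ± 0.25 (limma adjusted p = 0.47), and its libraries overlapped between the groups. The CER10 difference failed without either of the last 2 white light libraries at 28 °C or the last 2 shade libraries at 20 °C (limma adjusted p = 0.0523 to 0.159), and 3 members were called with a constant prior variance. Median subtraction added CER6, at 0.30 (limma adjusted p = 0.0346), and turned the whole-table split to 1200 higher and 532 lower genes, beside 737 and 936 without it.

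The bases before the annotated starts are shown because KCS1, CER3 and CER1 rose in shade while CER6 did not pass. The sequences are 250 bases upstream of the start in RefSeq's TAIR10.1 assembly, read on the gene's strand, and no other annotated gene covers them. They were searched on both strands for CACGTG (the G-box bound by bHLH and bZIP factors), CACATG (an E-box form bound by bHLH factors), GCCGCC (the GCC box of ERF factors), TAACTA (letters bound by MYB factors), CAACTA (a second form of the MYB letters), TAAATGCA (the L1 box known from epidermal genes), TAAATGTA (a second form of the L1 box) and GAANNTTC (the core of heat shock elements). Capitals mark a match, which may read as its reverse complement, and matches did not overlap.
KCS1, chr1:59216-59465, minus strand: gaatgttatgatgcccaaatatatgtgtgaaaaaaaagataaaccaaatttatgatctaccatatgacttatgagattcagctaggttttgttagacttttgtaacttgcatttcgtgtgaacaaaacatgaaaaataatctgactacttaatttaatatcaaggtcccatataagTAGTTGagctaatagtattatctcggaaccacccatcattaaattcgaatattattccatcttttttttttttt
CER3, chr5:23419934-23420183, plus strand: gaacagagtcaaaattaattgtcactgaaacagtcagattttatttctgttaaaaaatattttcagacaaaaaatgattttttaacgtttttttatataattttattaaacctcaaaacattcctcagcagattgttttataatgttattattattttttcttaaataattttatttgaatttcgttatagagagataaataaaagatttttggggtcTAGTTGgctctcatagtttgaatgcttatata
CER1, chr1:418166-418415, plus strand: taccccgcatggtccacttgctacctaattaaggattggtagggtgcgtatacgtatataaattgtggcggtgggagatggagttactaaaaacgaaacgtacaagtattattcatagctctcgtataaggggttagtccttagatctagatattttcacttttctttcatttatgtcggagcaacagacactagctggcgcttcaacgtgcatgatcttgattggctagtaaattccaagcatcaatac
CER6, chr1:25715025-25715274, minus strand: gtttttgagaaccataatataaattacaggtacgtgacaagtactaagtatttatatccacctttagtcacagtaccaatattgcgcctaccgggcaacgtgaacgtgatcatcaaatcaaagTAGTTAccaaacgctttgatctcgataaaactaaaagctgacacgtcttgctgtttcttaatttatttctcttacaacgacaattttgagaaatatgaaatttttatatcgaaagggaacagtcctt

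CAACTA, printed as its complement, began 74 bases before the start of KCS1 and 32 bases before that of CER3. With CER2 and CER4 it was in 4 of 10 members, and in 14.6% of 27443 promoters of the same length. CER6 held TAACTA, which CER2 and MAH1 also held, and 20.6% of all promoters did. The window of CER1, which had the largest rise of any member in shade at 20 °C, held none of the 8 motifs. Those of CER10 and LTPG1, which also rose there, and of KCR1, which did not pass, held none either. CER4, which did not pass, held CAACTA at 250 and 87 bases before its start. Whether the motifs go with the changes was not tested. CACATG was in 2 of 10 members, CER2 and MAH1, and in 11.1% of promoters. The G-box, the GCC box, both forms of the L1 box and the heat shock core were in 0 of the 10 windows. Among all promoters 6.49% held the G-box, 1.87% the GCC box, 1.57% and 3.00% the L1 box forms and 9.55% the heat shock core. Most of the windows of CER2 and KCR1 lie within a neighbouring gene. Only the 19 bases next to the start of CER2 are free of its neighbour, AT4G24500. Every match counted for CER2, at 52, 71 and 250 bases before its start, therefore lies within that gene.

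The list of other wax genes also held more genes that rose than fell in shade. Of 20 listed, 17 were tested, and in shade at 20 °C 8 rose and 1 fell, beside 5.43% and 2.66% of all tested genes, with a median log2 change of 0.32. The counts were 6 and 2 after median subtraction, and 4 and 0 with a constant prior variance. KCS9, another ketoacyl-CoA synthase, rose by 0.90 ± 0.12 (limma adjusted p = 3.2e-06), LTPG2, a close relative of LTPG1, by 0.89 ± 0.12 (limma adjusted p = 9.2e-06) and FATB, the thioesterase that releases saturated fatty acids in the plastid, by 0.86 ± 0.09 (limma adjusted p = 2e-07). KCS12, KCS16, KCS10, KCS20 and PAS2, the dehydratase of the elongation cycle, also rose, and CER26, a relative of CER2, fell. At 28 °C, shade raised 5 (KCS9, LTPG2, KCS20, ABCG11 and ABCG12) and lowered 1, LACS1, a long-chain acyl-CoA synthetase, by 0.89 ± 0.13 (limma adjusted p = 4e-05), beside 2.68% and 1.90% of all tested genes. With a constant prior variance 2 rose and 1 fell there.

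With warmth in white light 3 of these 17 rose (FATB, KCS16 and KCS2) and 1 fell, ABCG12, a transporter of wax across the plasma membrane, near the whole-table shares of 10.8% and 4.80%. After median subtraction 2 rose and 5 fell, and with a constant prior variance 2 rose and 0 fell. The log2 change of KCS9 was -0.28 ± 0.12 (limma adjusted p = 0.1) and that of LTPG2 was -0.30 ± 0.12 (limma adjusted p = 0.1). Shade alone exceeded warmth alone by 1.18 ± 0.12 for both KCS9 (limma adjusted p = 6.57e-08) and LTPG2 (limma adjusted p = 1.47e-07), in a comparison where 6 of the 17 were higher and 0 lower, or 4 and 0 with a constant prior variance. Among all tested genes 3.46% were higher and 4.39% lower in this comparison. Under shade, warmth lowered 1 gene, LACS1, by 0.84 ± 0.13 (limma adjusted p = 0.000175), and 0 rose, beside 1.99% of all tested genes that fell and 2.19% that rose. With both treatments against neither 10 rose and 4 fell, beside 14.9% and 7.42% of all tested genes; 6 rose and 4 fell after median subtraction, and 6 and 3 with a constant prior variance.

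Of 12 listed regulators of wax, 9 were tested. In shade at 20 °C 1 rose and 0 fell, beside 5.43% and 2.66% of all tested genes, in shade at 28 °C 0 rose and 1 fell, beside 2.68% and 1.90%, and with both treatments against neither 2 rose and 2 fell, beside 14.9% and 7.42%. MYB30, an activator of genes for very long chains, rose by 0.72 ± 0.19 in shade at 20 °C (limma adjusted p = 0.016), and was higher by 0.79 ± 0.19 under shade alone than under warmth alone (limma adjusted p = 0.00893). DEWAX, a repressor of wax genes, fell by 0.50 ± 0.12 in shade at 28 °C (limma adjusted p = 0.012) and by 0.59 ± 0.12 with both treatments against neither (limma adjusted p = 0.00063). Against neither treatment, MYB106, a MYB factor of cuticle formation, also fell, by 1.09 ± 0.29 (limma adjusted p = 0.0074), and CER9, a ubiquitin ligase that limits wax and cutin, rose by 0.30 ± 0.10 (limma adjusted p = 0.023), a call lost under all 3 scalings (limma adjusted p = 0.184 to 0.325), with a constant prior variance, and without white light replicate 1 or 3 at 20 °C or shade replicate 3 at 28 °C (limma adjusted p = 0.0572 to 0.134). MYB30 rose there by 0.54 ± 0.19 (limma adjusted p = 0.0423), a call lost under all 3 scalings (limma adjusted p = 0.155 to 0.175), without the low-value filter, with voom weights, and without white light replicate 1 or 2 at 20 °C, shade replicate 1 at 20 °C or shade replicate 1 or 3 at 28 °C (limma adjusted p = 0.0508 to 0.21). With a constant prior variance 2 calls were left among the regulators in all comparisons, both of genes that fell with both treatments against neither. Single libraries decided several of these calls. MYB30 in shade at 20 °C was lost without white light replicate 1 or 2 or shade replicate 2 at 20 °C (limma adjusted p = 0.0596 to 0.117), and against warmth alone without shade replicate 2 at 20 °C (limma adjusted p = 0.0811) or with a constant prior variance (limma adjusted p = 0.0614). DEWAX in shade at 28 °C was lost without white light replicate 1 or 2 or shade replicate 3 at 28 °C (limma adjusted p = 0.0659 to 0.115) or with a constant prior variance (limma adjusted p = 0.142), and MYB106 without white light replicate 3 at 20 °C (limma adjusted p = 0.0644). Warmth gave 0 calls by limma among the 9 in white light, with 2 at an unadjusted p under 0.05 (CER9 and MYB106), and 0 under shade, with 3 (DEWAX, MYB106 and MYB96). Of all tested genes, 10.8% rose and 4.80% fell with warmth in white light, and 2.19% and 1.99% under shade. Under shade, 2 regulators fell with warmth after median subtraction, and 1 each with quantile normalization and trimmed mean scaling.

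Cutin is the polyester in which wax is embedded, and 13 of 14 listed genes for it were tested. In shade at 20 °C 4 rose and 0 fell, beside 5.43% and 2.66% of all tested genes, with a median log2 change of 0.36; 3 rose after median subtraction, 2 with quantile normalization and 2 with a constant prior variance. BDG, a hydrolase needed for an intact cuticle, rose by 1.10 ± 0.12 (limma adjusted p = 1.81e-07), CYP86A2, a hydroxylase of fatty acids, by 0.79 ± 0.10 (limma adjusted p = 2.64e-06), HTH, which oxidises cutin monomers, by 0.49 ± 0.13 (limma adjusted p = 0.0148) and GPAT8, an acyltransferase that makes cutin precursors, by 0.46 ± 0.13 (limma adjusted p = 0.0308). At 20 °C the HTH call was lost without replicate 1 or 3 of white light or 2 or 3 of shade (limma adjusted p = 0.0648 to 0.101) and the GPAT8 call without the same replicates (limma adjusted p = 0.0857 to 0.213); GPAT8 also failed under all 3 scalings (limma adjusted p = 0.0641 to 0.0904) and HTH under quantile normalization (limma adjusted p = 0.0611). At 28 °C 4 rose (BDG, CYP86A2, GPAT8 and LTL1) and 0 fell, beside 2.68% and 1.90% of all tested genes; 2 rose with a constant prior variance. Warmth raised 2 in white light, HTH by 0.82 ± 0.13 (limma adjusted p = 5.7e-05) and BDG by 0.66 ± 0.12 (limma adjusted p = 0.000259), where 10.8% of all tested genes rose, and 0 under shade, where 2.19% rose. Both treatments together raised 6 and lowered 0 against neither, beside 14.9% and 7.42% of all tested genes, and 3 rose after median subtraction as well as with a constant prior variance. Shade alone exceeded warmth alone in 3 (CYP86A2, GPAT8 and BDG), in a comparison where 3.46% of all tested genes were higher. The BDG call was lost in shade at 28 °C without white light replicate 1 or 2 or shade replicate 2 at 28 °C (limma adjusted p = 0.0514 to 0.0896), and against warmth alone without white light replicate 1 or 2 at 28 °C or shade replicate 2 at 20 °C (limma adjusted p = 0.0626 to 0.109). With a constant prior variance both BDG calls were lost (limma adjusted p = 0.0858 and 0.077), as was GPAT8 against warmth alone (limma adjusted p = 0.0744), so that 1 gene exceeded warmth alone.

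**Figure D4:**
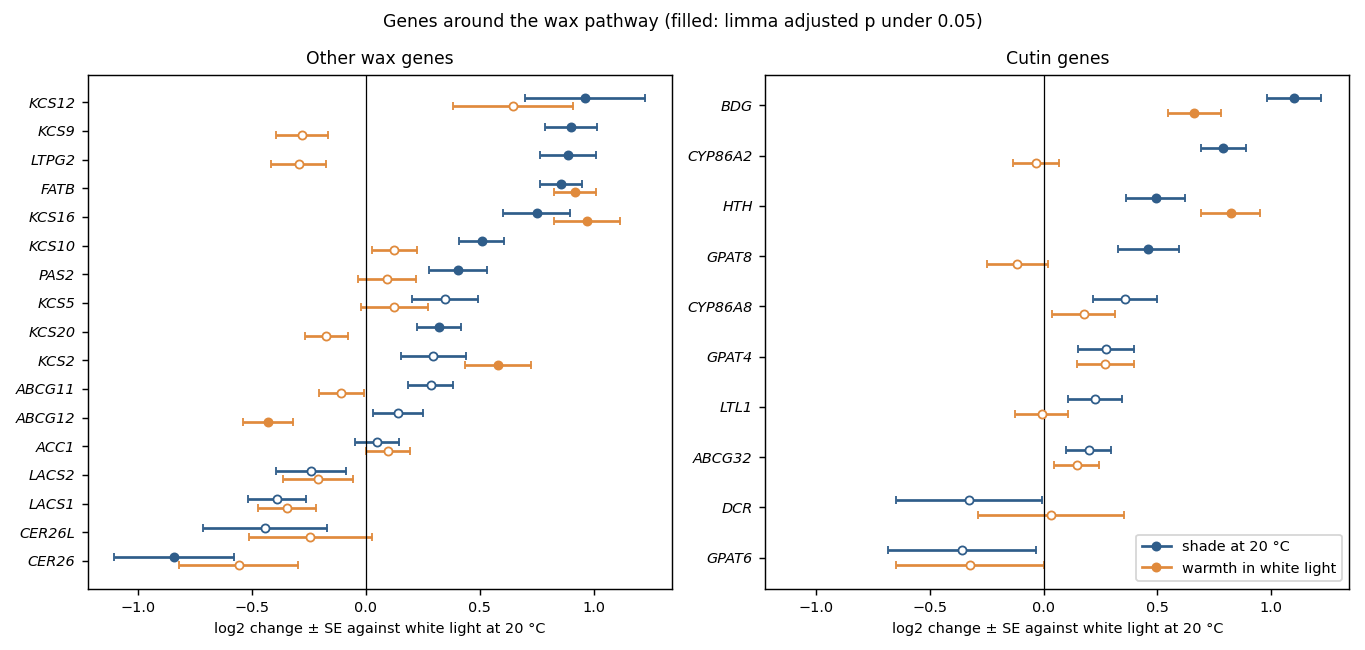
Log2 change ± SE of the tested genes around the pathway in shade at 20 °C and with warmth at 28 °C in white light, both against white light at 20 °C, so the same control libraries enter both; filled points passed a limma adjusted p of 0.05, and 3 cutin genes with an SE over 0.5 are left out. KCS9, LTPG2, CYP86A2 and GPAT8 are filled for shade alone, and FATB, KCS16, BDG and HTH for both.

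Cell type markers moved in part with these genes. The counts below stand beside these shares of all tested genes: 5.43% rose and 2.66% fell in shade at 20 °C, and 2.68% and 1.90% in shade at 28 °C. With warmth 10.8% rose and 4.80% fell in white light, and 2.19% and 1.99% under shade. Against neither treatment, both together raised 14.9% and lowered 7.42%. Of the 6 epidermis markers, PDF1, a proline-rich protein of the shoot surface, rose by 0.86 ± 0.13 in shade at 20 °C (limma adjusted p = 2.9e-05) and by 0.67 ± 0.13 in shade at 28 °C (limma adjusted p = 0.00123), and 0 of the other 5 passed in either comparison. PDF1 was also higher under shade alone than under warmth alone, where 3.46% of all tested genes were higher. With a constant prior variance that call and the PDF1 call in shade at 28 °C were lost (limma adjusted p = 0.0852 and 0.107). With warmth in white light ACR4 passed as the only epidermis marker, and none did after median subtraction or with a constant prior variance. The ACR4 call was also lost under quantile normalization and trimmed mean scaling, and without replicate 2 or 3 of either white light group (limma adjusted p = 0.0835 to 0.183). Both treatments together raised ACR4 and PDF1 against neither. That ACR4 call was lost under all 3 scalings, with a constant prior variance, with voom weights and without some single libraries (limma adjusted p = 0.0584 to 0.214). Of 4 mesophyll markers, 2 fell in shade at 20 °C (CAB3 and LHCB3) and 4 with warmth in white light, or 3 with quantile normalization. The call lost there was that of RBCS1A. With warmth in white light it was also lost with a constant or robust prior variance or without the low-value filter (limma adjusted p = 0.0636 to 0.0789). Leaving out white light replicate 3 at 28 °C lost it too (limma adjusted p = 0.0561). In shade at 28 °C and with warmth under shade 2 fell, or 1 with a constant prior variance, and with both treatments against neither 4 fell, or 2 with quantile normalization. Against neither, the CA1 call was also lost with a constant or robust prior variance or without the low-value filter (limma adjusted p = 0.0928 to 0.142). It was lost too without white light replicate 1 or 3 at 20 °C or shade replicate 2 or 3 at 28 °C (limma adjusted p = 0.0842 to 0.145). The summed mesophyll level was 11290 to 17469 CPM in shade at 28 °C, 18511 to 21205 CPM in shade at 20 °C, 12881 to 19593 CPM in white light at 28 °C and 26875 to 27234 CPM in white light at 20 °C. Of 4 root surface markers 0 changed with shade at either temperature. With warmth in white light, where CER1 and CER2 rose, 2 of the 4 also rose, PRP3 by 0.77 ± 0.16 (limma adjusted p = 0.00131) and RHD6 by 0.70 ± 0.24 (limma adjusted p = 0.0458), or 1 of 4 after median subtraction. EXPA7 rose with warmth under shade, by 0.87 ± 0.21 (limma adjusted p = 0.0161), and with both treatments against neither 2 rose, EXPA7 and PRP3. Of 5 root suberin and 3 guard cell markers 0 changed in any comparison. The part of these shifts in the wax results was not tested.

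For each member that passed in any pair of groups, the gene with the most similar profile was sought among 14200 tested genes with a mean log2 CPM of at least 3. LTPG1 was closest to KCS20, with a Pearson r of 0.977 over the 12 libraries. KCS20 (AT5G43760) is itself in the list of other wax genes. The nearest gene to KCS1 was AT3G16370 (r = 0.989), to CER2 TMK1 (r = 0.985), to CER1 CAT2, which RefSeq lists at AT1G58030 (r = 0.978), to CER3 ACT11 (r = 0.974) and to CER10 CYP83B1 (r = 0.949). These values describe 12 libraries that fall into 4 treated groups, and all genes of a library share its depth.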

How the data were processed

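RNA of 12 libraries from whole seedlings was sequenced as read pairs. The deposited values are on another scale than reads: the authors gave log2 CPM with 0.5 read added (voom scale). Per the submitters' processing notes, the tools included TopHat2 2.1.1, SAMtools 1.3, R 4.0.2 and limma, with build TAIR10; the read counter was not given in the sources used here. Columns headed ambient or heat were taken as 20 and 28 °C. Whole reads were recovered from 100% of values within 0.001 read, between 3500325 and 4481869 per library; floors of 3 reads cover counting error only. In R 4.3.3, limma 3.58.1 estimated the mean of each of the 4 groups with a trended prior variance, and p-values were adjusted by the Benjamini-Hochberg method over all 21316 tested genes (threshold 0.05); the script was tested on simulated data. SEs come from this fit; with the 0.5 read added, folds of genes with few reads are understated. Coordinates, exon lengths and upstream sequences came from the RefSeq TAIR10.1 genome and annotation; exons of a gene were merged. Tables and plots used matplotlib 3.10.9, pandas 2.3.3 and numpy 2.4.6 under Python 3.11.15.

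The members and lists were chosen with earlier results of these data known. Named were all members, the 4 genes of each other list with the smallest adjusted p in a pair of groups, and regulators with a call; other listed genes with a call, markers and genes that overlap members were named after their values were seen. The alternatives changed the prior variance, the low-value filter, the scaling, the reads added or the weights, used a replicate block, or left out each library in turn. No sequence of 50 exon bases of a member occurred elsewhere in the genome.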

Additional observations from a re-analysis of the deposited data

Results flagged for a closer look

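No wax member met a rule for a closer look; groups of 3 libraries were not searched for outlying samples. For 3 genes around the pathway the change with shade differed between 28 and 20 °C by the interaction term of the limma fit. They were 2 of 17 tested other wax genes and 1 of 13 tested cutin genes, with 0 of 9 tested regulators. Among all tested genes 0.127% had a positive and 0.319% a negative term by this test. FATB, the plastid thioesterase, had a term of -0.64 ± 0.13 (SE; limma adjusted p = 0.0183), with changes with shade of 0.22 at 28 °C and 0.86 at 20 °C. KCS16, a ketoacyl-CoA synthase, had a term of -0.90 ± 0.21 (limma adjusted p = 0.0429), with changes of -0.15 at 28 °C and 0.75 at 20 °C. HTH, of cutin synthesis, had a term of -0.79 ± 0.18 (limma adjusted p = 0.0433), with changes of -0.30 at 28 °C and 0.49 at 20 °C. Over the alternatives the adjusted p of these terms went up to 0.258 for FATB, 0.433 for KCS16 and 0.431 for HTH. The KCS16 and HTH calls were lost under all 3 scalings and without the low-value filter (limma adjusted p = 0.0713 to 0.0956). Both also failed without white light replicate 1 or 3 at 20 °C or replicate 2 or 3 of another group (limma adjusted p = 0.0547 to 0.159). FATB failed with quantile normalization and without replicate 3 of any group (limma adjusted p = 0.0511 to 0.076).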

How the results depend on the processing

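Of 1323 member changes recomputed under alternatives, 1249 kept their direction and side of the threshold. Another 22 lost a call, 9 gained a call, 0 reversed with a call, and 43 changed sign without any call. Most of the 1323 belong to changes without a reported call, which could not lose one. CER2 with warmth in white light lost its call in 9 of 21 alternatives, and CER10 for shade alone against warmth alone in 5 of 21. With a constant prior variance the called members numbered 1 for warmth in white light, 2 for shade at 28 °C and 3 for shade alone against warmth alone, where the reported counts were 2, 4 and 5. Leaving out a library gave 1 to 2 called members for warmth in white light, and 0 to 1 for the interaction. The constant prior also moved the counts over all genes to 1950 for warmth in white light (3333 reported), 919 for shade at 20 °C (1724), 357 for shade at 28 °C (978), 184 for warmth under shade (892), 802 for shade alone against warmth alone (1673) and 6 for the interaction (95). With a library left out they were as low as 1109 for shade at 20 °C and 403 for warmth under shade, and 59 to 156 for the interaction. CA1, a mesophyll marker, gave 0.04 under quantile normalization for both treatments against neither, beside -0.47 as reported. The cause was not tested.

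Residuals of same-numbered libraries correlated at -0.03 to 0.041 (18 pairs) over the tested genes, so they shared little residual variation. Whether same-numbered libraries were grown or handled together is not given by the labels, and these values cannot show it. The fit with a replicate block called 2, 6, 5, 4, 0, 5 and 0 members in the order warmth in white light, shade at 20 °C, both against neither, shade at 28 °C, warmth under shade, shade alone against warmth alone and interaction, as without it. Depth limits CER4 and MAH1, and CER1 in white light at 20 °C rests on 56 reads.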
